A study of Mus musculus with 66 samples.

Results

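Kmt2c encodes a histone H3 lysine 4 methyltransferase, and its knockdown was measured here in 12 of the 66 RNA sequencing libraries of the series. Of these, 6 came from cultures given a short hairpin RNA (shRNA) against Kmt2c and 6 from cultures given a nontargeting shRNA, with 3 libraries per sex in each group. The members were taken by the target, sex suffix and number in the column names of the deposited table. The control columns carry the abbreviation Luc there, and the labels call that treatment nontargeting. Every group was cultured neurons of wildtype (WT) mouse embryos at E16.5, kept apart by sex. The shRNA was delivered by lentivirus, which was taken off at day 6 in culture, and the neurons were lysed at day 10. Doses had been set beforehand by RT-qPCR so that a target would fall to about 50% of its level. The labels name a single Kmt2c shRNA treatment and speak of wells infected in triplicate, so p-values measure the spread between these libraries, which may be technical. Further values come from 6 libraries without virus and from 48 libraries of the 8 other shRNAs, which target Ash1l, Chd8, Dnmt3a, Kdm6b, Mbd5, Med13l, Setd5 and Tbr1.

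KMT2C is the catalytic subunit of a COMPASS-like complex that places H3K4 monomethylation, a mark of enhancers. It shares this complex with the scaffold proteins WDR5, RBBP5, ASH2L and DPY30, the subunits NCOA6, PAXIP1 and PAGR1, and the H3K27 demethylase KDM6A. Its close relative KMT2D forms a complex of the same kind, and loss of one copy of KMT2C in people is known for intellectual disability and autism. An shRNA is cut by the cell into a small RNA that guides Argonaute proteins to the matching mRNA. Such small RNAs, like microRNAs, can also lower other mRNAs that hold a short match to their seed, the bases near their 5′ end, most often in the 3′ untranslated region (3′UTR).

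The 12 libraries held between 18225355 and 55616813 counts. The 6 female libraries had 520 to 1420 CPM (counts scaled to equal library totals) of Xist and at most 6 counts over 4 Y-linked genes, and the 6 male libraries had at most 0.37 CPM of Xist. Outside the 12, the libraries labelled Setd5 male replicate 1 (139 CPM of Setd5) and Kdm6b male replicate 1 (40.7 CPM of Setd5, 36.2 CPM of Kdm6b) did not show the levels their labels call for. In the female library labelled Setd5 replicate 1, Y-linked genes had 1210 counts. These 3 enter the shared estimate of spread, and without them the calls of the main comparison numbered 666 in place of 480. The summed level of 15 general neuron markers ranged from 10100 to 10600 CPM after Kmt2c shRNA and from 10400 to 11200 CPM in the controls, and no marker was at 0 throughout. Glial markers were also present. The 21 astrocyte markers summed to 765 to 1180 CPM and 828 to 1260 CPM.

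Kmt2c itself was lower in every library that received its shRNA. The female Kmt2c libraries had 29.4, 31.4 and 34.1 CPM, and the female controls 63.0, 107 and 67.7 CPM. The male Kmt2c libraries had 47.0, 41.1 and 48.9 CPM, and the male controls 90.8, 87.8 and 105 CPM. The groups did not overlap in either sex. Mean levels were 39.9% of the control mean in females, 48.3% in males and 44.4% over both. On the log2 scale this was −1.17 (SE 0.11, edgeR adjusted p = 3.04e-11), and libraries without virus held 88.5 ± 10.1 CPM (SD, n = 6).

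Over both sexes, 326 of 16145 genes tested were lower and 154 were higher after Kmt2c shRNA at an edgeR adjusted p under 0.05. These are 2.02% and 0.954% of the genes tested, and 2.97% together. The fit compared libraries of the same sex and number, and fold changes are on the log2 scale. Lower genes had a median change of −0.45 and higher genes of 0.49, against −0.01 over all genes. Among the lower genes 30 changed by at least 1, 98 by 0.5 to 1 and 198 by less. Among the higher genes these classes held 26, 48 and 80. In females alone 152 genes were lower and 24 higher (0.941% and 0.149%, together 1.09%), and in males alone 64 were lower and 6 higher (0.396% and 0.0372%, together 0.434%). The sexes share no library, and 58 genes changed the same way in both, 54 of them downward. The difference between the sexes in the Kmt2c effect was called for 0 genes by edgeR (unadjusted p under 0.05 for 232) and for 1 by DESeq2. Nontargeting against no virus gave 0 calls by edgeR (unadjusted p under 0.05 for 323) and 2 by DESeq2.

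The number of calls depended on the pairing and on single libraries. Without the replicate block 96 genes were lower and 16 higher, and all 112 were also called with it. Leaving out Kmt2c female replicate 1 left 259 calls, the fewest of the 12 such fits. In that fit 209 of the 326 lower genes and 43 of the 154 higher genes kept their call. Fits without Kmt2c male replicate 3, nontargeting female replicate 2 or nontargeting male replicate 1 gave 302, 292 and 316 calls.

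The lower genes shared a run of letters in their 3′UTRs. The 7-base word GTAGCTA, written as DNA in the sense of the mRNA, was in the 3′UTR of 178 of the 310 lower genes that have an annotated 3′UTR. That is 57.4% (95% Wilson interval 51.9 to 62.8%), against 851 of 14391 genes (5.91%) over all tested genes and 1 of 144 higher genes (0.694%). One transcript per gene was read, the one with the longest coding region in the GENCODE M21 annotation of mouse build GRCm38 (mm10). The word was found after the values were seen. In the female comparison, all 7-base words were ranked by their share among lower genes over their share among all genes. The first of that ranking was taken. The windows below are examples from lower genes with small p-values and from lower genes with known roles in chromatin or neuronal identity. Rgs8, Agap1, Slc25a16, Rgs7bp and Ppm1e also had small p-values and hold sites that are not shown. An A follows the word in most windows shown, but in 53 of the 154 lower genes with 1 site. Each window is 30 bases of the mRNA strand, 5′ to 3′, with the word in capitals. The first is the only occurrence in the Kmt2c transcript itself, which is 14967 bases long and has a 3′UTR of 57 bases.

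Kmt2c, coding exon 43: accaggaacgtctccaGTAGCTAatagcaa
Pex5, 3′UTR: tcttaccttgtcttcaGTAGCTAatgatca
Mlec, 3′UTR: gaaggaacatctttctGTAGCTAataaaaa
Ctbp1, 3′UTR: taagcaaaagaagttaGTAGCTAattctat
Rab2b, 3′UTR: aaagttgattgtcacaGTAGCTAaaaggca
Dctn5, 3′UTR: ccttagttgtcctataGTAGCTAataaaag
Frat2, 3′UTR: catcccaaactttaagGTAGCTAaactttt
Cdk19, 3′UTR: ataattttaacttcatGTAGCTAagtctac
Tbr1, 3′UTR: ccctggtgcacacaatGTAGCTAaggagaa
Kdm6a, 3′UTR: tgcaccactgctatttGTAGCTAtctcgta
Nptx1, 3′UTR: ttctgtgatcacccatGTAGCTActgaaaa
Knop1, 3′UTR: tgacagtattttaataGTAGCTAgcagttg

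On build mm10 the Kmt2c window lies at chr5:25299621-25299650 on the minus strand, in exon 43 of 59. The Pex5 window is at chr6:124396954-124396983 (minus), the Mlec window at chr5:115145687-115145716 (minus) and the Ctbp1 window at chr5:33248254-33248283 (minus). Those of Rab2b, Dctn5 and Frat2 are at chr14:52263435-52263464 (minus), chr7:122149003-122149032 (plus) and chr19:41846123-41846152 (minus). Cdk19 and Tbr1 hold theirs at chr10:40480515-40480544 and chr2:61813249-61813278, both on the plus strand. The Kdm6a, Nptx1 and Knop1 windows are at chrX:18278716-18278745 (plus), chr11:119540564-119540593 (minus) and chr7:118845610-118845639 (minus). Each of these 3′UTR windows is in the last exon of its transcript.

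The bases before the word were compared with those of the Kmt2c window. Over 16 bases, lower genes with 1 site matched the Kmt2c window at 4.08 positions on average (highest 9), and genes with 1 site that were not lower matched at 4.13. The base that follows went with the share of genes called lower. It was 27.2% of 195 genes where an A follows, 20.6% of 170 with C, 20.2% of 213 with T and 10.7% of 214 with G. By the base before the word, the share was 11.3% of 151 genes with G and 20% to 22% with A, C or T. The hairpin's own sequence is not given in the sources used here, so whether its seed matches these letters was not tested.

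The word was taken as the first of the female ranking, so its lead in females was fixed by that choice. In males, which share no library with females, it led as well. In females it was in 93 of 147 lower genes with a 3′UTR (63.3%), a share 10.7 times that of all genes, and the next word reached 6.6 times. In males it was in 50 of 61 (82.0%), 13.9 times the share of all genes, and the next word reached 6.93 times. The second word was TAGCTAA in both sexes, which overlaps the first by 6 bases. With lower genes that have a 3′UTR ordered by p over both sexes, GTAGCTA was in 13 of the first 15, 43 of the first 50 and 74 of the first 100.

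Genes with the word were shifted as a group, called or not. Of the 851 genes, 696 (81.8%) had a fold change below 0, against 48.9% of the 13540 genes without it. Their median change was −0.17, and the genes without it had 0.00. In females the medians were −0.20 and 0.00, and in males −0.15 and 0.01. With 1 site the median was −0.17, and 154 of 793 genes were called lower (19.4%). With 2 or more sites it was −0.26, and 24 of 58 genes were called lower (41.4%). Where the word was only in the coding region or 5′UTR the median was −0.09, and 20 of 446 genes were called lower (4.48%). These are descriptions, since the word was chosen on the female part of the same comparison.

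**Figure D1:**
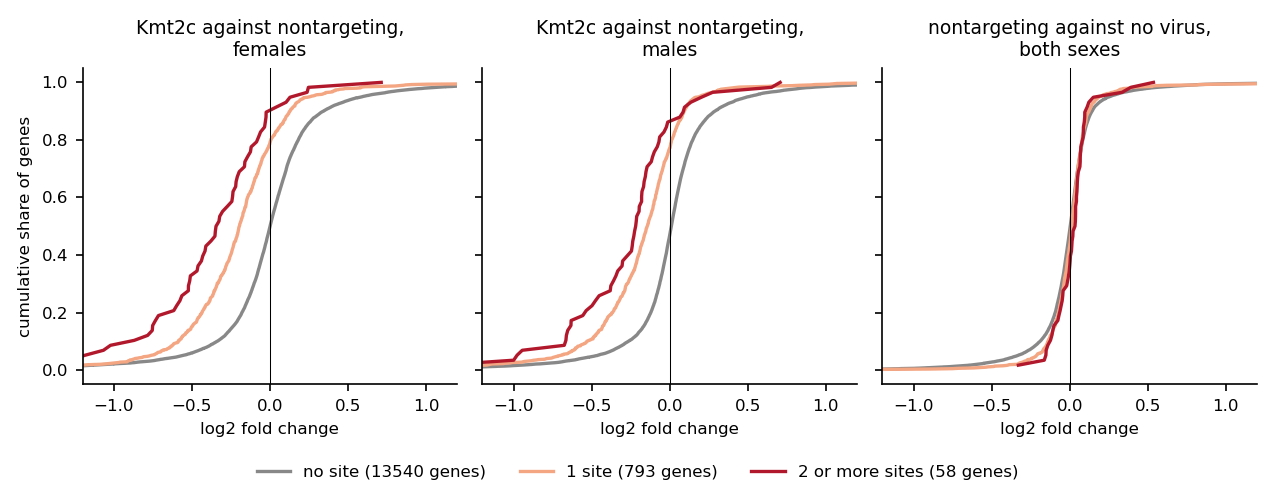
Cumulative share of genes (vertical axis) by log2 fold change (horizontal axis) for genes with no site, 1 site, and 2 or more sites of the 7-base word in the 3′UTR, in females, in males and for nontargeting against no virus. After Kmt2c shRNA the curves of genes with sites lie to the left in both sexes (female medians −0.20 with 1 site and −0.34 with 2 or more), and for nontargeting against no virus the 3 curves run together around 0.

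Shorter parts of the word and its reverse complement went with smaller shares. Of the 9498 genes with neither 6-base part of the word, 0.695% were called lower, with a median change of 0.02. Among genes without the whole word, those with its first 6 bases, GTAGCT, were called lower in 1.65% of 2781 cases. Those with the last 6, TAGCTA, were called lower in 2.18% of 2017. The medians of these classes were −0.03 and −0.04, and a gene with both parts is in both classes. The reverse complement TAGCTAC, in genes without the word, went with 1.9% of 525 genes, where 0.975% of all genes without the word were lower. Genes with the word had longer 3′UTRs (median 2649 bases) than genes without it (910 bases). Genes with the word were called lower more often in each of 5 classes of 3′UTR length. Among 3′UTRs of under 500 bases 6 of 23 genes with the word were lower (26.1%), against 0.682% of 4398 without it. At 3000 bases or more the shares were 21.7% of 368 and 2.53% of 1539.

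**Figure D2:**
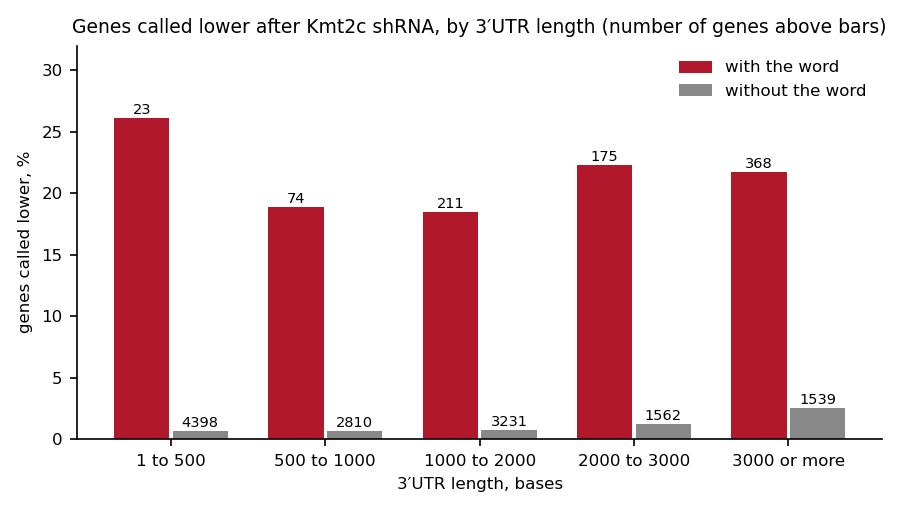
Percent of genes called lower after Kmt2c shRNA (vertical axis) by 3′UTR length in bases (horizontal axis), with and without the 7-base word, with the number of genes above each bar. In each of the 5 length classes genes with the word were called lower in 18.5% to 26.1% of cases and genes without it in 0.676% to 2.53%.

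Genes with the word were also low against the other references. Against the 8 other shRNAs 289 of the 851 were lower and 36 higher (34.0% and 4.23%), with a median of −0.14. Among genes without the word these shares were 6.69% and 11.6%. Against no virus 186 were lower and 5 higher (21.9% and 0.588%, against 1.34% and 1.88% without the word), with a median of −0.18. These 3 comparisons share the Kmt2c libraries. For nontargeting against no virus the median was 0.01 and no gene was called. In single libraries, the median log2 CPM of genes with the word relative to genes without it was −0.26, −0.16 and −0.19 in the female Kmt2c libraries and −0.12, −0.13 and −0.13 in the male ones. The nontargeting libraries ranged from −0.06 to 0.13 and the libraries without virus from −0.04 to 0.06. The 48 libraries of other shRNAs ranged from −0.24 to 0.22 and overlapped the Kmt2c libraries, with Med13l female replicate 1 at −0.24. Within each set of 11 libraries of the same sex and number, the Kmt2c library was the lowest, in 6 of 6 sets. The word was chosen in females, so the male sets alone are apart from that choice. Relative to the median of the other libraries of its set, each of the 6 Med13l libraries was also low (−0.21 to −0.04). On that scale the Kmt2c libraries lay between −0.24 and −0.14.

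**Figure D3:**
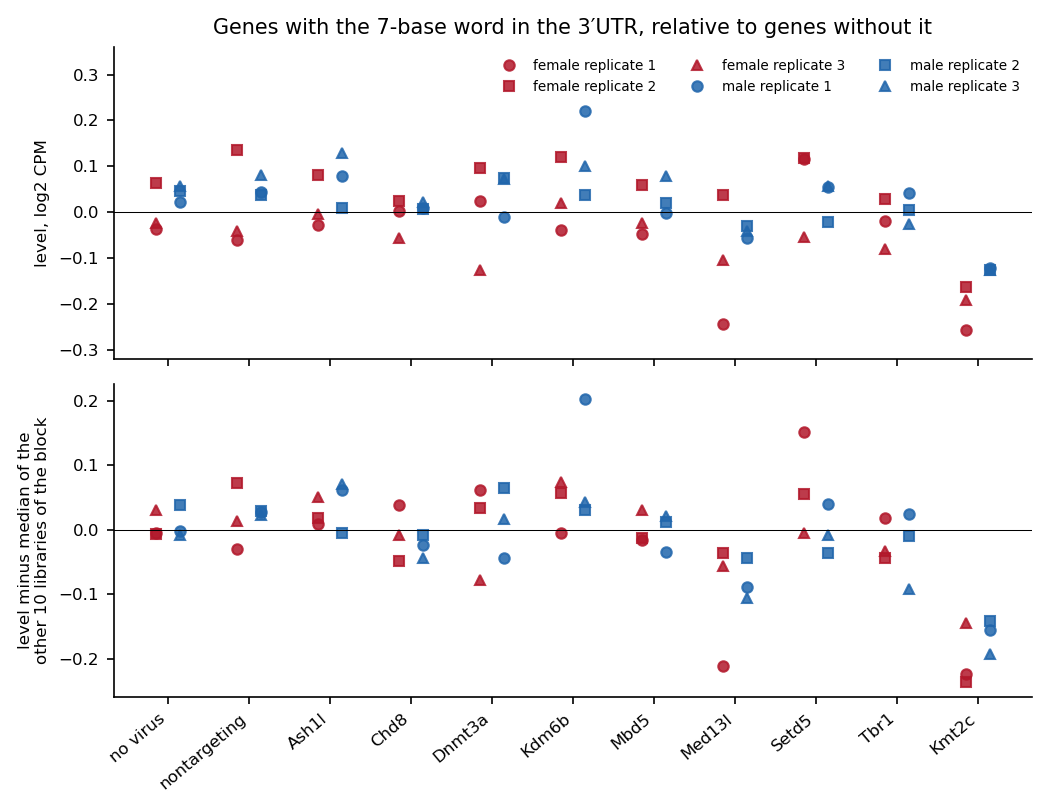
Median log2 CPM, centred on each gene's mean over all libraries, of the genes with the 7-base word minus that of the genes without it (vertical axis), for the 66 libraries by group (horizontal axis), with females in red, males in blue and the replicate number as the symbol. The lower panel subtracts the median of the other 10 libraries of the same sex and number. There the Kmt2c libraries lie between −0.24 and −0.14 and the Med13l libraries between −0.21 and −0.04.

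The 15 lower genes with the smallest p-values included Kmt2c and genes of trafficking, G protein signalling and transcription. Pex5, the receptor that brings proteins into peroxisomes, had 42.0, 104 and 60.6 CPM in the female Kmt2c libraries and 66.7, 75.2 and 63.8 CPM in the male ones. Its controls had 106, 167 and 132 CPM in females and 142, 124 and 151 CPM in males. The groups did not overlap, though female replicate 2 was high in both arms. The fitted change was −1.03 (SE 0.09, edgeR adjusted p = 3.22e-12). Mlec, malectin, a lectin of the endoplasmic reticulum, had 82.5 to 136 CPM after Kmt2c shRNA and 168 to 204 CPM in controls (log2 fold change −0.75, SE 0.06, edgeR adjusted p = 3.22e-12). Ctbp1, a transcriptional corepressor, had 91.5, 146 and 105 CPM in females and 124, 121 and 105 CPM in males. Its controls had 222, 201 and 200 CPM and 231, 221 and 213 CPM. Every Kmt2c library was below every control, with a log2 fold change of −0.90 (SE 0.08, edgeR adjusted p = 2.61e-11). The paralog Ctbp2, chosen after the values were seen and without the word in its 3′UTR, had −0.06 (edgeR adjusted p = 0.825).

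The other genes of this set followed the same order of libraries. Rgs8, a regulator of G protein signalling, had −0.98 and 2 sites in its 3′UTR, and Rgs7bp, which binds the regulator RGS7, had −1.02 and 2 sites. Rab2b, a small GTPase of membrane traffic, had −1.05, Agap1, a GTPase activator for Arf proteins, had −0.72 with 2 sites, and Dctn5, a subunit of the dynactin motor complex, had −0.67. Frat2, a GSK3-binding protein of Wnt signalling, had −1.19. The remaining members were the kinase gene Hipk3 (−0.90), the phosphatase gene Ppm1e (−0.73), the mitochondrial carrier gene Slc25a16 (−0.63) and Ankrd29 (−1.38). All 15 genes had separate ranges in the 2 arms, where 226 genes (1.4%) did so over the whole table. All 15 also kept their call without the replicate block and in each of the 12 fits that left out a library. The genes were chosen for small p in this same comparison, so the separate ranges and kept calls are descriptions. Ap1s2, a subunit of the AP-1 clathrin adaptor, was the member with a 3′UTR but without the word, apart from Kmt2c. It had 48.9, 41.1 and 18.4 CPM in females and 32.2, 35.3 and 24.6 CPM in males, against 155, 76.3 and 50.5 CPM and 112, 82.1 and 83.4 CPM (log2 fold change −1.45, SE 0.15, edgeR adjusted p = 1.51e-09).

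**Figure D4:**
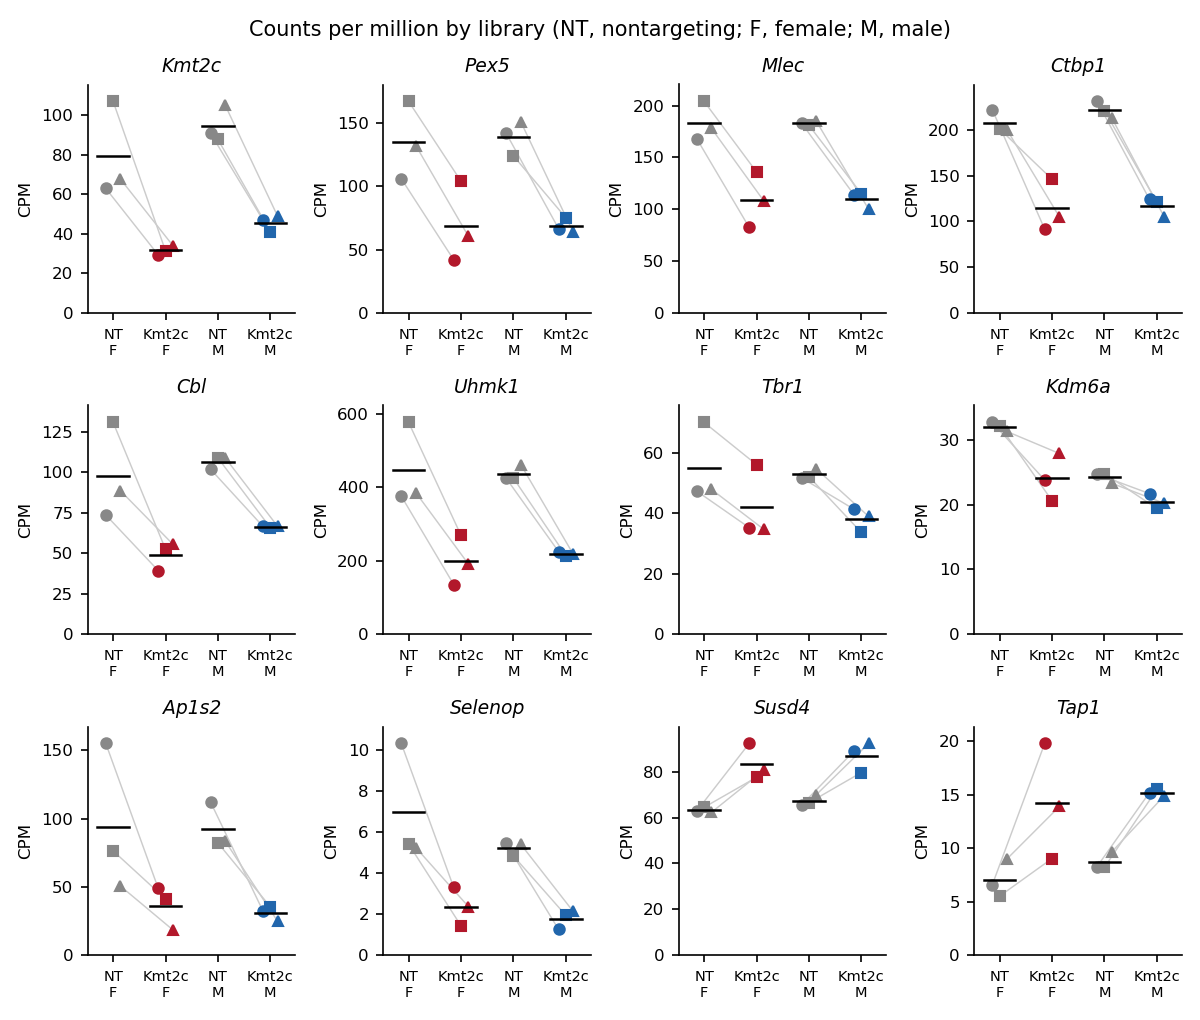
CPM (vertical axis, from 0) in each library for 12 genes, with nontargeting controls in grey, female Kmt2c libraries in red and male ones in blue, bars at the mean and thin lines joining libraries of the same sex and number. Kmt2c, Pex5, Mlec, Ctbp1, Cbl, Uhmk1, Ap1s2 and Selenop fall without overlap, Susd4 rises without overlap, and Tbr1, Kdm6a and Tap1 overlap between arms while every pair moves one way.

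Further lower genes with the word, chosen after their values were seen, came from signalling and nuclear import. Cbl, a ubiquitin ligase of growth factor receptors, had 39.3 to 66.6 CPM after Kmt2c shRNA and 73.7 to 131 CPM in controls (log2 fold change −0.83, SE 0.11, edgeR adjusted p = 2.72e-07). Uhmk1, a kinase gene with 2 sites, had 135 to 269 CPM against 376 to 577 CPM (−1.09, SE 0.18, edgeR adjusted p = 0.000116). The import receptor genes Kpnb1, Kpna6 and Ipo8 changed by −0.52, −0.44 and −0.57. Map3k7, which encodes the kinase TAK1, changed by −0.57, and Cdk19, a kinase of the Mediator complex, by −0.65. Trp53, the p53 tumour suppressor gene, had 7.71, 15.1 and 9.05 CPM in females and 13.1, 10.5 and 9.81 CPM in males, against 12.2, 20.1 and 15.3 CPM and 15.6, 15.5 and 17.6 CPM. The arms overlapped, and every pair was lower (−0.56, SE 0.09, edgeR adjusted p = 4.5e-05). Its transcript holds the word once in the 3′UTR. Of the 18 genes in a list of p53 targets, Zmat3 alone was called, at −0.76, and it too holds the word in its 3′UTR. The median of that list was 0.02.

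Among the partners of KMT2C the calls were few. Of 10 genes in the list of this complex, Kmt2c and Kdm6a were lower, with a list median of −0.09. Kdm6a, the X-linked H3K27 demethylase gene, had 23.8, 20.6 and 27.9 CPM in females and 21.7, 19.4 and 20.2 CPM in males. Its controls had 32.7, 32.2 and 31.3 CPM and 24.7, 24.8 and 23.3 CPM. Every pair was lower, and within each sex the arms were separate (log2 fold change −0.33, SE 0.09, edgeR adjusted p = 0.0159). The call was lost without Kmt2c female replicate 1, Kmt2c male replicate 2 or nontargeting female replicate 2 (edgeR adjusted p up to 0.0996) and without the replicate block (0.193). The scaffold genes Wdr5, Rbbp5, Ash2l and Dpy30 had fold changes of −0.01, −0.06, −0.03 and 0.06. Kmt2d had −0.17 (SE 0.15, edgeR adjusted p = 0.682), and its female Kmt2c libraries held 66.5, 45.7 and 68.1 CPM against 62.5, 104 and 74.8 CPM. Ncoa6, Paxip1 and Pagr1a, the last under 1 CPM, had −0.07, −0.10 and −0.17, none of them called.

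Other chromatin genes moved in single cases. Setd7, a lysine methyltransferase gene, was the only call among 16 other H3K4 writers (−0.42, SE 0.09, edgeR adjusted p = 0.00295). None of 5 H3K4 demethylases or 14 H3K27 enzymes was called, with medians of 0.06 and 0.02. Kdm5a and Rbbp7 hold the word in the 3′UTR and had −0.10 and −0.18 (edgeR adjusted p 0.647 and 0.143). Among 18 genes of the CtBP and LSD1 corepressors, Ctbp1 and Zeb2 were lower, and Zeb2, a repressor that recruits CtBP, had −0.30 (edgeR adjusted p = 0.0483, lost in 10 of 12 fits that left out a library). Of the 8 other shRNA targets, Tbr1 was called. Tbr1, a transcription factor of deep cortical layers, had 35.3, 56.2 and 34.7 CPM in females and 41.4, 33.7 and 39.0 CPM in males. Its controls had 47.4, 70.2 and 48.0 CPM and 51.8, 52.2 and 54.8 CPM. Every pair was lower though the arms overlapped (−0.44, SE 0.10, edgeR adjusted p = 0.00367, and 0.394 without the replicate block). Chd8, Dnmt3a, Mbd5, Med13l, Ash1l, Setd5 and Kdm6b had between −0.19 and 0.27, and none was called.

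Genes of neuronal identity and synapses were called one by one. Over the 33 lists 790 genes were tested, with 24 lower, 9 higher and a median of −0.01. Over all 16145 genes tested, 2.02% were lower and 0.954% higher. Single calls are therefore given gene by gene and not as results about a list. Reln, the extracellular protein reelin, fell by 0.71 on the log2 scale (SE 0.18, edgeR adjusted p = 0.0135). Its Kmt2c libraries had 509, 431 and 560 CPM in females and 976, 586 and 691 CPM in males, against 986, 1050 and 725 CPM and 1360, 798 and 1150 CPM. The call was lost without Kmt2c female replicate 2 (0.0561). Among 23 genes of excitatory identity Slc17a6, a vesicular glutamate transporter gene, had −0.33 and Foxp2 had −0.35. Both were near the threshold (edgeR adjusted p 0.0298 and 0.0498) and lost their call in 10 of 12 fits that left out a library. Of 38 presynaptic genes Rab3a, a GTPase of synaptic vesicles, had −0.27 (edgeR adjusted p = 0.00517). Of 49 postsynaptic genes Lrrtm2, a synaptic adhesion gene, had −0.47, Homer2, a scaffold gene, had −0.42 and Camk2b, a kinase gene, had −0.28. Cacng3, the gene of an auxiliary protein of AMPA receptors, had 0.44. Camk2b and Cacng3 lost their call in 2 and 5 of the 12 fits that left out a library. Slc17a6, Rab3a and Lrrtm2 hold the word in the 3′UTR that was read. Homer2 and Camk2b hold it in another annotated 3′UTR.

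Single members of other lists were called too. Nptx1, a pentraxin of excitatory synapses with the word in its 3′UTR, had 13.5, 16.7 and 14.9 CPM in females and 19.0, 14.9 and 14.5 CPM in males. Its controls had 21.4, 25 and 21.3 CPM and 28.8, 20.4 and 21.3 CPM, so the arms were separate (−0.56, SE 0.13, edgeR adjusted p = 0.00585). Sema6d, an axon guidance gene with the word in its 3′UTR, had −0.49 (edgeR adjusted p = 0.00588) and was the only call of 48 in its list. Kcna2, a potassium channel gene, had −0.37, Auts2 had −0.37 and Id1 had −0.83, while Nrn1 had 0.33, Cbln2 had 0.33 and Tgfbr2 had 0.71. Igf1 had −0.64 against nontargeting and −0.07 against the other shRNAs (edgeR adjusted p 0.0472 and 0.781). Tgfbr2, a TGF-beta receptor gene, was the 1 higher gene with the word, at 2 sites, and its call was lost in 11 of 12 fits that left out a library. Of the 33 called members of the lists 14 kept their call in all 12 such fits, and Ctbp1, Kmt2c and Slc1a2 kept it without the replicate block. No member was called among 49 ribosomal genes, 21 early activity genes, 16 GABA receptor genes, 51 adhesion genes, 34 Wnt genes, 20 stress genes, 17 interferon genes or 21 proliferation genes. The median of the ribosomal list was 0.10 and that of the interferon list 0.22.

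Some astrocyte genes were lower while others were not. Of 21 astrocyte markers 4 were lower and none was higher (2.02% and 0.954% over all genes), with a median of −0.12. Over the 12 fits that left out a library the median ranged from −0.19 to −0.01. It was nearest 0 without Kmt2c female replicate 1. Slc1a2, the main glial glutamate transporter gene, had 111, 155 and 156 CPM in females and 160, 157 and 156 CPM in males. Its controls had 194, 367 and 250 CPM and 250, 245 and 263 CPM, with no overlap (−0.79, SE 0.11, edgeR adjusted p = 7.86e-07). It holds the word in its 3′UTR. Aqp4, the water channel of astrocyte endfeet, had 9.78, 3.66 and 4.28 CPM in females and 4.0, 4.08 and 6.06 CPM in males, against 19.4, 8.34 and 13.7 CPM and 8.90, 9.15 and 9.34 CPM (−1.14, edgeR adjusted p = 0.00196). Gja1, the gap junction protein connexin 43, had −0.93 and S100b had −2.15 at levels near 1 CPM in controls. Without the replicate block Slc1a2 alone passed (Aqp4 0.411, Gja1 0.493, S100b 0.0789). Gja1 was lost without Kmt2c female replicate 1 (0.107) and without 3 other libraries. A fit of the 12 libraries alone called 5 astrocyte markers lower and 3 higher. In bulk cultures fewer cells of a type and less RNA per cell cannot be told apart.

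Other glial genes, chosen after their values were seen, were not called, and their values lay on both sides of control. Slc1a3 had 0.29, Aldoc 0.58 and Sox9 −0.0049 (edgeR adjusted p 0.510, 0.277 and 0.997). Aldoc was higher in all 6 pairs and Slc1a3 in 5 of 6. Gfap had −0.77 with all 6 pairs lower, and Fabp7 had −0.12 with 5 of 6 pairs lower (edgeR adjusted p 0.305 and 0.882). The direction for Sox9 turned under other size factors. Genes with the largest folds among those of at least 1 CPM included several low genes that no list held. Selenop, which carries selenium between tissues, had 3.29, 1.42 and 2.36 CPM in females and 1.25, 1.93 and 2.12 CPM in males. Its controls had 10.3, 5.4 and 5.22 CPM and 5.43, 4.82 and 5.39 CPM, all above every Kmt2c library (−1.63, SE 0.25, edgeR adjusted p = 2.08e-05). Slc39a12, a zinc transporter gene, had 0.143 to 0.924 CPM against 1.30 to 4.17 CPM (−1.80, edgeR adjusted p = 0.000775). Slc25a18, a mitochondrial glutamate carrier gene, had −1.42. These 3 kept their call in each fit that left out a library, and none passed without the replicate block (edgeR adjusted p 0.124, 0.0759 and 0.132). Hopx, Kcnj10 and Slco1c1, chosen after their values were seen, had −1.34, −1.19 and −0.88. Kcnj10 (edgeR adjusted p = 0.0404) lost its call in 10 of the 12 fits that left out a library, with a highest adjusted p of 0.182. Of these 6 genes, Hopx alone holds the word in its 3′UTR.

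Antigen presentation genes stood out among those that rose. Tap1, which moves peptides into the endoplasmic reticulum for loading on MHC class I, had 19.8, 9.03 and 13.9 CPM in females and 15.2, 15.5 and 14.9 CPM in males. Its controls had 6.57, 5.51 and 8.99 CPM and 8.28, 8.2 and 9.65 CPM, and every pair was higher (log2 fold change 0.92, SE 0.15, edgeR adjusted p = 4.66e-05). In a list of antigen presentation genes put together after the values were seen, 11 of 38 tested genes were higher and none was lower. Over all genes tested 0.954% were higher and 2.02% lower. The median of the list was 0.57. With no filter on low counts 57 members were tested, the median was 0.39, and 7 were higher and none lower. The class I gene H2-K1 had 161, 66.3 and 97.1 CPM in females and 61.4, 70.6 and 99.5 CPM in males, against 35.1, 25 and 54.8 CPM and 39.1, 56.9 and 50.4 CPM (1.10, SE 0.30, edgeR adjusted p = 0.0298). The class II gene H2-Ab1 had 1.31, the class Ib gene H2-T23 had 1.15, and H2-Q2, H2-Q6 and H2-Q10 had 1.35, 1.57 and 1.87. H2-Q7 and H2-Q9 had identical counts in these libraries, as had H2-T22 and H2-T9, so the 11 calls include 2 pairs with the same values. Why these counts were identical was not tested. Both members of each pair also enter the median of the list and its summed level. B2m, the shared light chain of class I, had 0.18 and H2-D1 had 0.30, neither called and both chosen after their values were seen.

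The calls in this list depended on single libraries. Since the list was put together after the values were seen, its summed level and medians are descriptions. The list's summed level was 305 to 473 CPM after Kmt2c shRNA, 207 to 297 CPM in controls, so that the arms did not overlap, and 143 to 627 CPM under the other shRNAs. Without Kmt2c female replicate 1, which had the highest sum, or without Kmt2c male replicate 3, 1 member was called. The medians were then 0.46 and 0.55, and over all 12 fits that left out a library they ranged from 0.46 to 0.75. Without nontargeting female replicate 2 or nontargeting male replicate 3, 2 members were called. Tap1 was called in all 12 such fits and was the only member called without the replicate block. Of 14 markers of microglia, which express these genes, 7 passed the filter and were tested, and none was called. The median of these 7 was 0.32 against nontargeting and 0.42 against the other shRNAs. All 14 summed to 19.4 to 25.5 CPM after Kmt2c shRNA, against 15.1 to 20.6 CPM in controls. Their part in the rise was not tested.

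**Figure D5:**
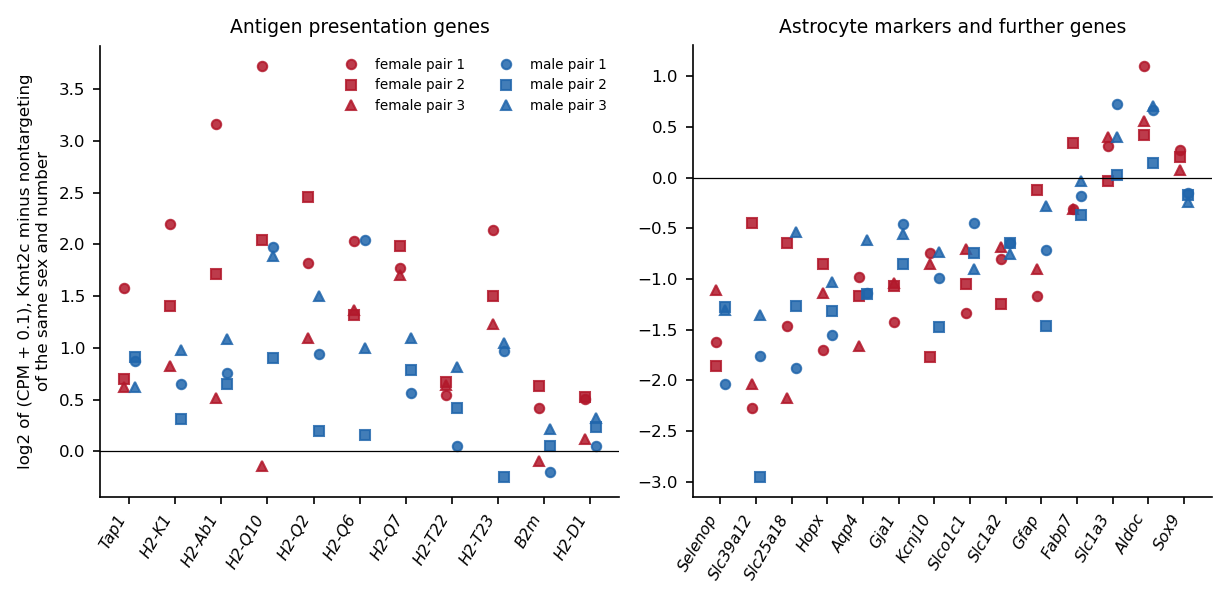
Difference in log2 of CPM plus 0.1 between each Kmt2c library and its control of equal sex and number (vertical axis), for antigen presentation genes (left) and astrocyte markers with other genes named beside them (right), with females in red and males in blue. Tap1, H2-K1 and Aldoc lie above 0 in all 6 pairs, Selenop and Slc1a2 lie below 0 in all 6, and Slc1a3 lies mostly above 0.

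The other higher genes with the smallest p-values changed by modest amounts. Susd4, a complement regulator gene, had 92.4, 77.6 and 80.7 CPM in females and 89.1, 79.7 and 92.4 CPM in males. Its controls had 62.9, 64.5 and 62.3 CPM and 65.5, 66.5 and 70.0 CPM, with no overlap (0.39, SE 0.05, edgeR adjusted p = 1.55e-06). Nefh, the heavy neurofilament gene, had 18.3, 35.2 and 22.4 CPM in females and 29.1, 28.7 and 33.3 CPM in males, against 10.8, 21.4 and 9.96 CPM and 14.7, 14.9 and 19.1 CPM. Every pair was higher while the arms overlapped (0.89, SE 0.15, edgeR adjusted p = 0.000131). It was the only call among 15 general neuron markers. Polr3g, an RNA polymerase III subunit gene, had 0.82, the calpain protease gene Capn1 0.70, the heme oxygenase gene Hmox1 0.65 and the actin-severing protein gene Gsn 0.70. The cytochrome P450 gene Cyp2s1 had 1.22, the matrix metalloproteinase gene Mmp11 1.15 and Rab27a, a GTPase of vesicle secretion, 1.15. Fam214b, Septin9, Amz1, Arhgap18 and Rps6ka1 lay between 0.37 and 0.73. All 15 genes, chosen for small p in this same comparison, kept their call in each fit that left out a library. Without the replicate block 8 of the 15 passed, and Nefh (0.241), Septin9 (0.707), Capn1 (0.110), Hmox1 (0.157), Gsn (0.0577), Arhgap18 (0.157) and Rps6ka1 (0.198) did not.

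Among higher genes with a mean of at least 1 CPM the largest folds were at low levels. Vgll2, a cofactor of TEAD transcription factors, had 1.69 to 4.5 CPM against 0.417 to 1.51 CPM (1.58, SE 0.45, edgeR adjusted p = 0.0360). Hpse, heparanase, had 1.32 to 3.34 CPM against 0.0787 to 1.30 CPM (1.49, SE 0.39, edgeR adjusted p = 0.0203). Neither kept its call in every fit that left out a library, and the highest adjusted p was 0.137 for Vgll2 without nontargeting female replicate 2 and 0.0901 for Hpse without nontargeting male replicate 2.

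Cholesterol synthesis genes gave 3 higher genes of 25, Mvd, Dhcr7 and Nsdhl (0.954% over all genes), with a list median of 0.14. Mvd, mevalonate decarboxylase, had 177, 100 and 160 CPM in females and 127, 141 and 131 CPM in males, against 110, 67.6 and 127 CPM and 84.7, 127 and 83.2 CPM. The arms overlapped, and every pair was higher (0.49, SE 0.12, edgeR adjusted p = 0.0100). Dhcr7 had 0.37 and Nsdhl 0.26. Without Kmt2c female replicate 1 no gene of this list was called, and none passed without the replicate block. Against the 8 other shRNAs 16 of the 25 were higher and none was lower, with a median of 0.26. In that comparison 1677 genes were higher (10.4%) and 1293 lower (8.01%), and 10 of 20 stress genes were higher, where none was called against nontargeting.

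Calls against nontargeting mostly recurred against the other references, which share the Kmt2c libraries. Of the 326 lower genes 323 had the same sign and 286 were called lower against the 8 other shRNAs, and 271 were called lower against no virus. Of the 154 higher genes 124 and 102 were called higher. In the comparison with no virus 387 genes were lower and 271 higher (2.4% and 1.68%). Among the lower genes those with the word had a median change of −0.46 and the rest −0.42. Lower genes without the word numbered 132 of 13540 (0.975%), and genes without it were higher in 143 cases.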

How the data were processed

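Polyadenylated RNA of cultured neurons was sequenced with a stranded kit, per the labels' protocols. The authors deposited 1 table of read counts per gene, not normalized, and STAR, featureCounts and mm10 are named in the submitters' processing notes without versions. The table has 72 library columns, and 6 of them, which match no sample analysed, were not used. Of 48716 rows, 18483 had no symbol (0.715 to 1.07% of counts in the 12 libraries) and were left out, and 149 that repeated a symbol were summed. Counts between 1 and 20 were odd in 27.2% of cases, against 49.4% from 1000 up, so halved counts were also tried.

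Tests used edgeR 4.0.16 under R 4.3.3 (filterByExpr, TMM, robust quasi-likelihood F test, Benjamini-Hochberg over 16145 genes, threshold 0.05). The fit held all 66 libraries, 22 group means and 6 blocks of sex and replicate number, which left 40 residual degrees of freedom. Libraries with the same number deviated together (r between Kmt2c and nontargeting libraries of 0.218 to 0.456 in females and 0.121 to 0.23 in males, each above that of any other number), so the numbers were taken to pair the libraries. No 2 libraries of a group differed by less than sampling noise. CPM are counts scaled to equal TMM-adjusted library totals. Error rests on the replicates, since counts of amplified reads are not independent molecules, and Wilson intervals cover counting error only. The scripts were tested on simulated data.

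3′UTRs came from the GENCODE M21 annotation and transcripts (14391 tested genes had one), and 7-base words in at least 10 lower genes were ranked out of 16384 possible. The word was chosen as the first of the ranking in females.

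Genes were named by rule: Kmt2c, the 15 with the smallest p and the 5 with the largest fold in each direction (at least 1 CPM), up to 4 called members of each of 33 lists (or the uncalled member with the smallest p), all members of the KMT2C complex and of the other targets, Ctbp1 and Knop1, and the 3 with the smallest p against the other shRNAs. Members and lists were chosen with earlier results of these data known. The word, the antigen presentation list and the genes said to be chosen after their values were seen came later still. Alternatives were no replicate block, a fit of the 12 libraries, DESeq2 1.42.0, other size factors and filters, halved counts, and leaving out each library.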

Additional observations from a re-analysis of the deposited data

Results flagged for a closer look

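Each named gene was examined in both groups of 6 libraries, 256 groups in all, and 18 held a library that stood apart from the other 5, where chance gives about 1 in 20. In Kmt2c female replicate 1, Rab2b had 4.34 CPM (others 5.92 to 6.98), Slc1a2 had 111 CPM (155 to 160), Kpna6 had 99.6 CPM (117 to 128) and Lum had 0.47 CPM (0.0529 to 0.143). In Kmt2c female replicate 2, Dctn5 had 67.1 CPM (44.5 to 50.3), Rbbp7 had 160 CPM (116 to 123), Ndufa10 had 197 CPM (122 to 140) and Sufu had 6.33 CPM (7.7 to 8.63). In Kmt2c male replicate 3, Rps6ka1 had 21.5 CPM (16.7 to 18) and Nrn1 had 40.1 CPM (57 to 68).

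Among the controls, nontargeting female replicate 1 had 17.1 CPM of Frat2 (others 10.2 to 12.2), 9.99 CPM of Rps6ka1 (13.3 to 15.4), 10.3 CPM of Selenop (4.82 to 5.43) and 31 CPM of Kdm6b (52.3 to 64.9). Nontargeting female replicate 2 had 70.2 CPM of Tbr1 (47.4 to 54.8) and 47 CPM of H2-D1 (69.4 to 84). Nontargeting female replicate 3 had 80.1 CPM of Wdr5 (66 to 70.7), and nontargeting male replicate 3 had 31.1 CPM of Nrn1 (45.9 to 56.8).

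Sox9, a transcription factor of glia, was higher in all 3 female pairs and lower in all 3 male pairs. The male minus female difference in its log2 change was −0.372, and the edgeR test of that difference gave an adjusted p of 1.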

How the results depend on the processing

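Against the 480 genes called over both sexes, the fit without the replicate block called 112 (16 higher, 96 lower), and it called 16 in females, 14 in males, 1032 against the other shRNAs and 127 against no virus. The 12 libraries alone gave 778 calls (315 in females) with the block and 114 (2 in females, 1 in males) without it. Without the 3 libraries that go against their labels, females gave 266. DESeq2 called 1 gene for the difference between the sexes and 2 for nontargeting against no virus, where edgeR called none. Leaving out each of the 12 libraries gave 259 to 453 calls over both sexes, 34 to 215 in females, 28 to 75 in males, 1530 to 3041 against the other shRNAs and 349 to 698 against no virus. The difference between the sexes and nontargeting against no virus had 0 calls in each such fit. In these fits the change of Kmt2c ranged from −1.24 to −1.09.

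The share of lower genes with the word GTAGCTA, 57.4% as reported, was 76.3% without the replicate block. It was 51.3% and 80.2% in the 12 libraries with and without the block, and 53.6% to 65.4% when each library was left out. Over any annotated 3′UTR of a gene it was 64.2%, and over 3′UTRs of 1000 to 3000 bases 63.9%, both alternatives added after seeing the data.

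Over the named genes and alternatives, 2419 values kept their direction and side of the threshold, 361 lost a call, 17 gained one and 17 turned direction, all 17 of uncalled genes. Sox9 turned to 0.00084 and 0.0014 in the 12 libraries with and without the replicate block, 0.0026 with RLE size factors, 0.016 with the upper quartile and 0.0026 with DESeq2, and ranged from −0.037 to 0.041 when each library was left out. Wdr5 had 0.0063 with the upper quartile and −0.032 to 0.0048 over the left-out libraries. Those ranges were −0.063 to 0.010 for Ash2l, −0.035 to 0.11 for Dpy30, −0.13 to 0.015 for Ncoa6 and −0.0036 to 0.13 for Setd5. The cause was not tested.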

Other observations

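Lars2, which encodes the mitochondrial leucyl-tRNA synthetase and was chosen after its values were seen, was called higher after Kmt2c shRNA (log2 fold change 1.09, SE 0.31, edgeR adjusted p = 0.0456). Kmt2c female replicate 2 held 1340 CPM, and the other Kmt2c libraries held 208, 530, 324, 329 and 259 CPM. The controls held 139 to 283 CPM. Without Kmt2c female replicate 2 the edgeR adjusted p was 0.383.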
